A study of Mus musculus with 27 samples.

Results

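The step from day 4 (D4) to day 7 (D7) after muscle injury was examined in mice lacking Gsdme (KO), by comparing the 3 KO libraries of D7 with the 3 KO libraries of D4. Its members are these 6 libraries of the 27 in the series, of which 24 came from injured muscle, and the 13793 genes of 55852 in the table that reached a level of at least 1 TPM in at least 3 of the 6. Levels are TPM throughout, a relative transcript abundance that takes account of transcript length, so a larger share for some genes leaves less for the rest, and differences are log2 differences of TPM plus 1, D7 minus D4. A gene is said to be called where the adjusted p, from limma with Benjamini-Hochberg adjustment over all genes tested, was under 0.05.

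The study injected cardiotoxin (CTX), a snake venom toxin that destroys muscle fibers but spares their stem cells, and sequenced RNA of the injured tissue in WT and KO animals at 4 times from D1 to D14, with 3 mice per group. The KO mice carried a global Gsdme deletion, and by the study's methods were male and homozygous offspring of heterozygous parents, with C57BL/6J named as the WT strain. Sample titles read KO while the genotype field reads Gsdme knockdown, the harvested muscle is given as gastrocnemius, the series description also names the thigh for the injection, and no age is given. All 12 libraries used below, KO and WT alike, came from CTX-injected muscle, so each step is a contrast of 2 injured stages, and different mice stand behind each day.

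Gsdme encodes gasdermin E, a protein whose cleaved end forms pores in membranes and can turn apoptosis into lytic cell death. After CTX, satellite cells, the stem cells of muscle, divide, become myoblasts and fuse into new fibers that first make embryonic and neonatal isoforms of contractile proteins and fetal subunits of the acetylcholine receptor. Macrophages clear the debris, capillaries are rebuilt, and the young fibers later switch to adult isoforms as nerve contact returns.

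Replicate 2 stood apart on both days. KO D4 replicate 2 correlated less with D4 replicates 1 and 3 (Pearson's r across genes 0.909 and 0.922) than with D7 replicate 2 (0.972), D7 replicate 1 (0.949) or D7 replicate 3 (0.950), whereas D4 replicates 1 and 3 correlated at 0.977. In 73.3% of genes its level was nearer the mean of D7 replicates 1 and 3 than that of D4 replicates 1 and 3. It was also below both other D4 libraries in 72.7% of genes and above both in 17.2%, and D7 replicate 2 was below both other D7 libraries in 70.9%. The 50 most abundant genes held 51.1% of TPM in KO D4 replicate 2 against 33.5% and 39.3% in the other D4 libraries, and held 46.7%, 55.0% and 49.3% in D7 replicates 1, 2 and 3.

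Markers of other tissues were also uneven at D4. Summed over 20 genes of pancreatic acinar cells, KO D4 replicates 1, 2 and 3 held 12.3, 96.3 and 24.5 TPM against 1.89 to 2.94 TPM at D7 and 0.62 to 0.90 TPM in uninjured muscle. The summed level of 18 Schwann cell and nerve genes was 888 TPM in KO D4 replicate 2, with Sox10, a transcription factor of Schwann cells, at 6.13 TPM, and 154 to 318 TPM in the other 5 libraries. Erythrocyte genes summed to 4688 TPM in KO D4 replicate 2 and to 672 to 1918 TPM in the others. The part of these markers in the differences below was not tested, and counts of calls are therefore also given without KO D4 replicate 2 and without replicate 2 of both days. No 2 libraries held identical values in more than 0.299% of genes.

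**Figure D1:**
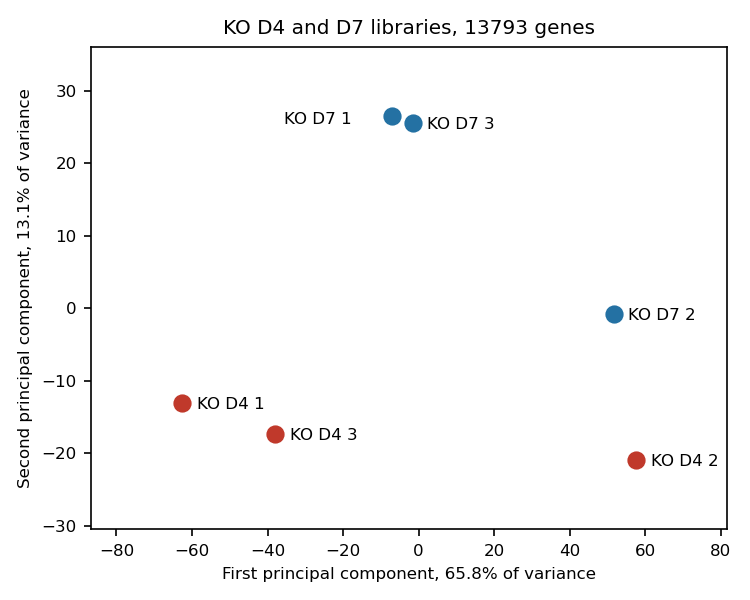
The 6 KO libraries are placed by the first 2 principal components of log2(TPM + 1) over the 13793 genes, which carried 65.8% and 13.1% of the variance, with red for D4, blue for D7 and digits for replicate numbers. Both libraries numbered 2 lie at the right, at 57.6 and 51.7 on the first component, and the other 4 lie between −62.6 and −1.58, while the second component places D7 replicates 1 and 3 (26.5 and 25.5) above all 3 D4 libraries (−20.9 to −13.0).

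Gsdme (ENSMUSG00000029821) was low in all 6 KO libraries, at 1.36, 1.00 and 1.64 TPM at D4 and 1.37, 1.01 and 0.95 TPM at D7. The KO means of 1.33 ± 0.321 TPM (SD, n = 3) and 1.11 ± 0.227 TPM (SD, n = 3) overlapped, with a log2 difference of −0.14 (SE 0.19) and an exact two-sided permutation p of 0.5, where 3 against 3 libraries allow no p under 0.1. WT libraries were at 2.77 ± 0.215 TPM at D4 and 2.15 ± 0.355 TPM at D7 (SD, n = 3 each). Every KO value was below every WT value, yet transcripts of the gene remained, and the deposited levels do not show which exons they came from. The muscle label held in each library, with Acta1 (skeletal actin) at 20104, 32907 and 33471 TPM at D4 and 33665, 43718 and 29554 TPM at D7, and Ttn (titin) between 64.9 and 111 TPM.

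Over all 6 KO libraries the fit of 24 injured libraries called no gene. Limma called 0 genes higher (0.0% of those tested) and 0 lower (0.0%), the lowest adjusted p was 0.0685, and an unadjusted p under 0.05 was reached by 1363 genes, 305 higher and 1058 lower at D7. Without overlap of the 3 D4 and 3 D7 levels, 326 genes were higher (2.36%) and 915 lower (6.63%). The median SD of log2 levels over genes was 0.408 among the D4 libraries and 0.176 among D4 replicates 1 and 3.

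Leaving out libraries changed the count of calls. Without KO D4 replicate 2, 107 genes were called higher at D7 (0.776%) and 1205 lower (8.74%). Without replicate 2 of both days, 46 were called higher (0.334%) and 278 lower (2.02%), of which 308 of the 324 were also called without KO D4 replicate 2 alone. All 324 had the same sign over all 6 libraries, and in 86 of them, 16 higher and 70 lower, the 3 levels of D7 did not overlap those of D4. The fits compared in this paragraph share most of their libraries, so such overlaps between them are no independent support. A replicate block paired D4 and D7 libraries of the same number and kept all 6 libraries, a pairing taken from these values and not from the design. It called 5 genes higher (0.0363%) and 25 lower (0.181%), of which 27 of the 30 were among the 324. With the spread estimated from these 6 libraries alone the same block called 0 genes in limma, with 1730 at an unadjusted p under 0.05 and a lowest adjusted p of 0.114, so each call under the block named below was lost there.

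The excess of lower calls depended on the scale. The median difference over all genes was −0.16 as deposited, −0.32 without KO D4 replicate 2 and −0.22 without replicate 2 of both days. Scaling by median-of-ratios size factors brought these medians to between −0.02 and −0.01 and gave 9 genes higher and 9 lower over all 6 libraries. With that scaling, 229 genes were called higher (1.66%) and 412 lower (2.99%) without KO D4 replicate 2, and 132 higher (0.957%) and 209 lower (1.52%) without replicate 2 of both days. Quantile normalization gave 14 higher and 9 lower, and removal of the 50 most abundant genes gave 11 higher and none lower, both over all 6 libraries. List medians below are therefore given relative to the median of all genes.

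Embryonic and neonatal fiber genes were the list with the lowest median relative to all genes among those with at least 5 members tested, and 8 of its 15 members were called lower without replicate 2 of both days. The median over the 15 members was −0.88 relative to all genes with all 6 libraries, −2.06 without KO D4 replicate 2 (10 called lower), and −1.50 without both (8 called lower, and 8 with median-of-ratios scaling, where Dlk1 was called higher). No member was without overlap over all 6 libraries. In WT muscle the same list had a relative median of −1.78, with 6 members called lower at D7.

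Chrng, the fetal gamma subunit of the acetylcholine receptor, was at 45.2, 1.18 and 53.2 TPM in KO D4 replicates 1, 2 and 3 and at 2.81, 1.09 and 1.83 TPM at D7. D4 replicate 2 thus lay among the D7 values, and the other D4 libraries were far above them. Chrng differed by −2.64 (SE 0.84) over all 6 libraries, with an adjusted p of 0.292 in limma, and was called lower at −3.93 (SE 0.61) without replicate 2 of both days (adjusted p = 0.00318, limma). Chrna1 and Chrnd, the alpha and delta subunits that stay in the adult receptor, were called lower in the same fit at −2.77 and −2.25, from 86.1, 10.01 and 103 TPM of Chrna1 at D4 to 12.5, 11.8 and 13.3 TPM at D7. The adult epsilon subunit Chrne was at 7.86, 12.6 and 10.4 TPM at D4 and 13.3, 18.96 and 17.8 TPM at D7, higher at D7 without overlap but not called in any of these fits (log2 difference 0.66, SE 0.29, adjusted p = 0.465 in limma). Of 15 neuromuscular junction genes, 4 were called lower without replicate 2 of both days, among them Rapsn, which clusters the receptor, at −1.01.

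Contractile isoforms of young fibers had the same arrangement of libraries. Tnnt2, cardiac troponin T, which regenerating fibers also make, was at 310, 7.37 and 349 TPM at D4 and 32.5, 12.2 and 29.4 TPM at D7. Myl4, the embryonic and atrial light chain, was at 1549, 76.7 and 1577 TPM at D4 and 199, 71.9 and 178 TPM at D7. Both were called lower without replicate 2 of both days, at −3.37 (SE 0.52, adjusted p = 0.00318, limma) for Tnnt2 and −3.05 (SE 0.56, adjusted p = 0.00844, limma) for Myl4. Myh8, the neonatal myosin heavy chain, was called lower at −2.69, while Myh3, the embryonic chain, at 259, 3.58 and 268 TPM at D4 and 106, 7.48 and 72.6 TPM at D7, was called without KO D4 replicate 2 (−2.70, adjusted p = 0.0238, limma) and not without both (−1.58, adjusted p = 0.0502, limma). Ncam1, an adhesion protein of young and denervated fibers, and Igf2, a growth factor of myoblasts, were called lower without both, at −2.58 and −1.66, against −1.76 and −0.80 over all 6 (adjusted p = 0.453 and 0.685, limma).

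As examples of the fiber genes called lower, the 250 bases upstream of the RefSeq start sites of Chrng, Chrna1 and Tnnt2 are shown (GRCm38.p6), with the E-box CAGCTG, a letter sequence that myogenic factors such as MyoD can bind, in capitals. The regions are chr1:87205561-87205810 on the plus strand for Chrng, chr2:73580339-73580588 on the minus strand for Chrna1 and chr1:135836084-135836333 on the plus strand for the first of 2 start sites of Tnnt2.
Chrng: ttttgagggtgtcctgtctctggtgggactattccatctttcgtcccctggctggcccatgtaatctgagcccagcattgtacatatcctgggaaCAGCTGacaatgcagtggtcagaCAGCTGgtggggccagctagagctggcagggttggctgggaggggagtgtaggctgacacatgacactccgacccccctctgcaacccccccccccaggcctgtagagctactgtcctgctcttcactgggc
Chrna1: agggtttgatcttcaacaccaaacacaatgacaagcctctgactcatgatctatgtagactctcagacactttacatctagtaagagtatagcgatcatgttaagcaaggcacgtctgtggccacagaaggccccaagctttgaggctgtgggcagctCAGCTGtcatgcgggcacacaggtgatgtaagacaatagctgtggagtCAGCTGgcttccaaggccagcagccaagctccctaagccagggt
Tnnt2: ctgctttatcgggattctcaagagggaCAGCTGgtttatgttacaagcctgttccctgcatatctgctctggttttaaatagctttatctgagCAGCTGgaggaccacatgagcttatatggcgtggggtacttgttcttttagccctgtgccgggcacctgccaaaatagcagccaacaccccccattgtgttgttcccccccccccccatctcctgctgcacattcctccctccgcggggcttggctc
Each holds 2 copies, which begin 155 and 132 bases before the start in Chrng, 92 and 44 in Chrna1, and 223 and 157 in Tnnt2. The motif reads the same on both strands. Among windows of 250 bases before and 50 after a start, 5355 of 32851 (16.3%) in the whole RefSeq table held it. For the 12 of 15 developmental fiber genes that matched the table, 4 of 18 windows (22.2%) held it. Most windows of this list held no copy, so the genes shown do not stand for it. In the adult fast sarcomere list, higher at D7 by its median, 11 of 24 windows (45.8%) held it. The shares were 7 of 18 (38.9%) for neuromuscular junction genes and 1 of 19 (5.26%) for satellite cell and myoblast genes. Both of these lists had members called lower. Whether the motif goes with the direction of change was not tested. These matches are a description of letters and show no binding.

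Satellite cell and myoblast genes were lower in part. Of 28 tested, 6 were called lower and none higher without replicate 2 of both days, and 10 lower without KO D4 replicate 2, with relative medians of −0.18 and −0.26. Mymk, the membrane protein myomaker that drives myoblast fusion, was at 140, 6.05 and 169 TPM at D4 and 15.6, 11.7 and 14.6 TPM at D7. It was called lower without replicate 2 of both days at −3.27 (SE 0.50, adjusted p = 0.00318, limma), and differed by −1.90 (SE 0.78, adjusted p = 0.451, limma) over all 6. Its fusion partner Mymx was called without KO D4 replicate 2 (−2.53) and not without both (−2.51, adjusted p = 0.0673, limma).

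Among the factors that set the lineage, Pax7, the satellite cell regulator, was at 4.25, 1.00 and 4.76 TPM at D4 and 2.20, 1.86 and 2.04 TPM at D7, and was called lower without replicate 2 of both days at −0.82 (SE 0.18). With median-of-ratios scaling Pax7 was no longer called in that fit and Myod1 was. Myod1, which commits cells to muscle, was at 59.0, 15.1 and 63.4 TPM at D4 and 15.1, 19.2 and 20.7 TPM at D7 (−1.73, adjusted p = 0.0502, limma, without both as deposited). Myog, which acts later in differentiation, was at 143, 14.3 and 146 TPM at D4 and 55.5, 35.0 and 53.9 TPM at D7 and was called without KO D4 replicate 2 only (−1.60, adjusted p = 0.0195, limma). Cdh15, the M-cadherin of satellite cells and myoblasts, Itga7, a laminin receptor of muscle, Fgfr4 and Myf5 were called lower without both, at −1.47, −1.06, −1.19 and −1.28, against −0.85, −0.67, −0.67 and −0.74 over all 6, where none of the 4 was called. In all of these genes D4 replicate 2 lay near or below the D7 levels, so that the 3 against 3 libraries overlapped.

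**Figure D2:**
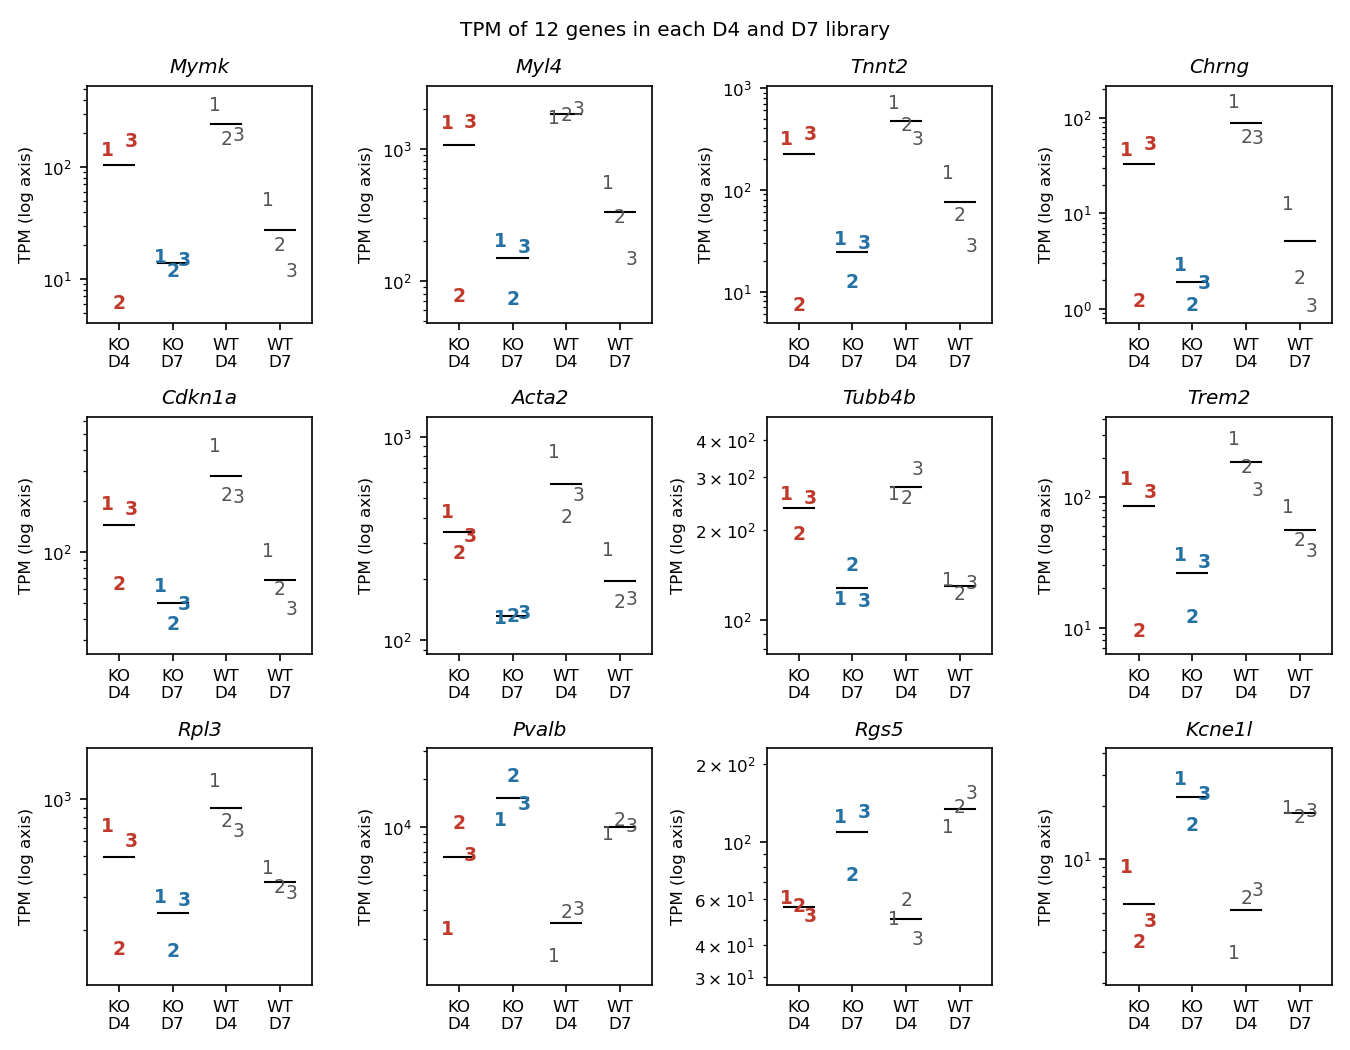
Levels of 12 genes in TPM on a log axis, with digits for replicate numbers in KO D4 (red), KO D7 (blue) and the 2 WT groups (grey), and a line at each group mean. In Mymk, Myl4, Tnnt2, Chrng and Trem2 the KO D4 digit 2 lies by the D7 values, whereas in Acta2, Tubb4b, Rgs5, Pvalb and Kcne1l the 3 D4 and 3 D7 digits do not overlap.

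Adult fast fiber genes were higher at D7 by their medians, with none called higher. The 35 sarcomere genes had a relative median of 0.48 over all 6 libraries, 0.86 without KO D4 replicate 2 and 0.61 without both. In 5 of them the D7 levels lay above D4 without overlap, beside 2.36% of all genes. Mylpf, the fast regulatory light chain, was at 18019, 30847 and 27616 TPM at D4 and 32825, 51450 and 38353 TPM at D7. Myl1, the fast essential light chain, was at 10344, 14148 and 16873 TPM at D4 and 20853, 23318 and 21676 TPM at D7. Neither was called, with log2 differences of 0.69 and 0.70 and adjusted p of 0.475 and 0.45 in limma, and D4 replicate 2 lay above D4 replicate 1 in both.

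Genes of calcium handling gave 1 called member. Pvalb, parvalbumin, the calcium buffer of fast fibers, was at 2280, 10517 and 6583 TPM at D4 and 11024, 20752 and 13823 TPM at D7, without overlap. It differed by 1.44 (SE 0.42, adjusted p = 0.257, limma) over all 6 libraries and was called higher without replicate 2 of both days (1.67, SE 0.43, adjusted p = 0.0492, limma), though not in that fit with median-of-ratios scaling. In 5 of the 20 genes of this list, Casq1 (the calcium store protein of fast fibers) among them, D7 lay above D4 without overlap, beside 2.36% of all genes. The relative median of the list was 0.51. The adult myosin chains Myh4, Myh1 and Myh2 were not called in any of these fits. In the slow list of 11, 6 members had a positive difference over all 6 libraries. Its relative median was 0.17 over all 6, 0.44 without KO D4 replicate 2 and 0.33 without both. The troponins Tnnt1, Tnni1 and Tnnc1 and the calcium pump Atp2a2 of this list were lower at D7 without overlap, as were 6.63% of all genes. They were uncalled over all 6 and without both. Without KO D4 replicate 2, 1 member of the slow list was called lower. Myh7, the slow chain, ranged from 0.57 TPM in D4 replicate 3 to 331 TPM in D4 replicate 2.

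Energy metabolism showed no call in KO muscle for the 13 listed mitochondrially encoded genes, the citrate cycle, glycolysis or fatty acid oxidation without replicate 2 of both days. The mitochondrial ribosomal RNA genes are not in that list and are given at the end. The 13 mitochondrially encoded genes had a relative median of 0.45 over all 6 libraries and 0.85 without both, and mt-Nd1, a subunit of complex I, was at 5357, 7596 and 5062 TPM at D4 and 7169, 5515 and 8385 TPM at D7. The replicates numbered 2 were highest at D4 and lowest at D7 in mt-Nd1. For the 80 nuclear genes of the respiratory chain the relative medians were 0.16 and 0.40, with none called higher. Cox8a and Cox6a1, isoforms of complex IV subunits that most tissues make, were called lower as deposited without KO D4 replicate 2, at −1.17 and −1.19, and not without both (−0.99 and −0.97, adjusted p = 0.0824 and 0.122, limma) or over all 6 (−0.80 and −0.85, adjusted p = 0.398 and 0.4, limma). With median-of-ratios scaling the 2 genes were called lower without KO D4 replicate 2, and Cox8a also without both.

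Endothelial genes were the list of nonmuscle cells with the most higher calls. Of 32 endothelial genes tested, 3 were called higher without replicate 2 of both days, 4 without KO D4 replicate 2, and 12 and 13 in those fits with median-of-ratios scaling, with none lower in any of the 4. The relative median was 0.45 over all 6 libraries and 0.83 without both. Erg, a transcription factor of endothelial cells, was at 6.70, 6 and 4.30 TPM at D4 and 12.6, 10.2 and 15.3 TPM at D7, without overlap. Erg differed by 1.04 (SE 0.23, adjusted p = 0.118, limma) over all 6 libraries and was called higher without both (1.22, SE 0.28, adjusted p = 0.0255, limma). Gpihbp1, which carries lipoprotein lipase to the capillary surface, was at 52.2, 130 and 46.9 TPM at D4 and 111, 98.6 and 108 TPM at D7, so D4 replicate 2 was the highest of the 6, and it was called without both at 1.13. Cdh5, the endothelial cadherin, was at 55.9, 77.2 and 42.2 TPM at D4 and 91.2, 85.8 and 101 TPM at D7, without overlap, and was called without KO D4 replicate 2 (0.91, adjusted p = 0.0263, limma) and not without both (adjusted p = 0.0642, limma). Col4a1 and Col4a2, chains of the basement membrane, were higher without overlap at 0.55 and 0.45 and were called only with median-of-ratios scaling.

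Pericyte and smooth muscle genes went both ways. Rgs5, a regulator of G protein signaling typical of pericytes, was at 60.2, 56.4 and 51.5 TPM at D4 and 124, 74.0 and 130 TPM at D7. Acta2, smooth muscle actin, which myofibroblasts and young fibers also make, was at 425, 266 and 324 TPM at D4 and 128, 131 and 135 TPM at D7. Neither gene overlapped between days, and D4 replicate 2 lay with its group in both. Without replicate 2 of both days Rgs5 was called higher (1.18, SE 0.21, adjusted p = 0.00732, limma) and Acta2 lower (−1.49, SE 0.33, adjusted p = 0.0254, limma), and the replicate block called Acta2 (adjusted p = 0.022, limma) and not Rgs5 (adjusted p = 0.0815, limma). In bulk tissue, fewer cells of a type and less RNA per cell cannot be told apart, here and in the lists of macrophages, stroma and dividing cells.

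Macrophage genes were lower at D7, with calls that rested on which libraries were kept. Of 44 genes of macrophages and lipid-associated macrophages, 22 were called lower without KO D4 replicate 2 and 3 without replicate 2 of both days, and with median-of-ratios scaling these counts were 10 and 3. The relative median was −0.55 over all 6 libraries, −1.12 without KO D4 replicate 2 and −0.94 without both, and no gene of the list was free of overlap over all 6. Trem2, a lipid-sensing receptor, was at 137, 9.42 and 109 TPM at D4 and 35.7, 11.9 and 31.6 TPM at D7. Spp1, osteopontin, was at 206, 17.4 and 112 TPM at D4 and 26.5, 8.26 and 21.1 TPM at D7. Both were called lower without KO D4 replicate 2 (−2.30 and −3.10, adjusted p = 0.0339 and 0.0405, limma) and neither without both (−1.83 and −2.63, adjusted p = 0.15 and 0.158, limma). The lysosomal genes Ctsd, a protease, Hexa, a glycosidase, and Lamp1, a membrane protein, were the 3 called without both as deposited, at −1.09, −1.08 and −0.64, with Ctsd at 980, 448 and 804 TPM at D4 and 453, 376 and 381 TPM at D7.

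Other immune lists gave few calls without replicate 2 of both days. Among 22 resident macrophage genes only Fcna, a soluble pattern recognition protein, was called lower (−1.50, SE 0.36), from 19.6, 12.7 and 17.9 TPM at D4 to 8.49, 7.39 and 4.15 TPM at D7, without overlap. Lyve1 (10.6, 9.91 and 6.35 TPM, then 8.14, 4.25 and 4.25 TPM) and Cd163 (14.8, 9.29 and 16.6 TPM, then 19.3, 7.57 and 17.3 TPM), markers of resident cells, overlapped and were not called. The 25 recruited monocyte genes tested had a relative median of −0.76 without both, with none called, and of 35 interferon-stimulated, 25 antigen presentation and 20 complement genes none was called either. Il18, an interleukin released by lytic cell death, was at 7.25, 1.27 and 4.37 TPM at D4 and 3.34, 1.18 and 4.18 TPM at D7, and Il1b at 2.95, 0.31 and 1.35 TPM and 0.56, 0.29 and 1.07 TPM, and neither was called. Of 16 gasdermin and pyroptosis genes none was called without both, and 2 were called lower without KO D4 replicate 2, beside 8.74% of all genes. Gsdmd, the gasdermin cleaved by inflammatory caspases, was at 21.0, 10.5 and 14.9 TPM at D4 and 12.6, 8.90 and 12.2 TPM at D7. S100a8 and S100a9, the calprotectin subunits of neutrophils, were at 14.0 and 27.7 TPM in D7 replicate 1 and at or below 4.31 TPM in the other 5 libraries.

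Dividing cells were represented by 46 mitosis and 47 DNA replication genes, none of which was called without replicate 2 of both days. The relative medians were −0.33 and −0.14 over all 6 libraries and −0.58 and −0.27 without both. Without KO D4 replicate 2, 4 of the 46 mitosis genes were called lower, a share near the 8.74% of all genes called lower in that fit. Of these 4, Cenpa, the centromeric histone, at −1.67 was the one still called with median-of-ratios scaling. Mki67, the proliferation marker, was at 4.73, 0.48 and 3.38 TPM at D4 and 2.77, 0.92 and 2.75 TPM at D7, with both replicates 2 lowest on their day. Cdkn1a, the p21 inhibitor that rises as myoblasts leave the cycle, was at 191, 63.8 and 178 TPM at D4 and 62.7, 37.3 and 48.7 TPM at D7, just without overlap. Cdkn1a differed by −1.40 (SE 0.39, adjusted p = 0.241, limma) over all 6 libraries and was called lower without both (−1.72, SE 0.40, adjusted p = 0.0286, limma). In windows of 250 bases before and 50 after the start, the CCAAT box (CCAAT or ATTGG) was held by 28 of 39 windows (71.8%) of the mitosis list, for 37 of its 46 genes, against 12289 of 32851 (37.4%) of all. The cell cycle homology element TTTGAA, on either strand, was held by 29 of 39 (74.4%) against 5878 (17.9%).

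The tubulins Tubb4b and Tuba4a kept the days apart in all 6 libraries. Tubb4b, a beta tubulin of microtubules, was at 263, 193 and 255 TPM at D4 and 117, 152 and 116 TPM at D7. Tuba4a, an alpha tubulin, was at 513, 635 and 637 TPM at D4 and 188, 373 and 187 TPM at D7. Both were lower without overlap, and D7 replicate 2 lay closest to the D4 values in each. Tubb4b differed by −0.88 (SE 0.15) over all 6 libraries with an adjusted p of 0.0685 in limma, was called lower without both (−1.15, adjusted p = 0.00131, limma) and under the replicate block (adjusted p = 0.0353, limma). For Tuba4a the values were −1.32 (SE 0.26, adjusted p = 0.0962), −1.60 (adjusted p = 0.00528) and, under the block, an adjusted p of 0.0231, all from limma. Reads of tubulin genes can be split between near-identical copies, and how the deposited values treated them is not given in the sources used here.

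The upstream region of Tubb4b is shown because Tubb4b shared the lowest adjusted p over all 6 libraries with Cela1, Ciao2b, Card19 and Gm4841, and because the region holds the CCAAT box several times. It is chr2:25224703-25224952 on the minus strand (GRCm38.p6, RefSeq), with CCAAT in capitals.
Tubb4b: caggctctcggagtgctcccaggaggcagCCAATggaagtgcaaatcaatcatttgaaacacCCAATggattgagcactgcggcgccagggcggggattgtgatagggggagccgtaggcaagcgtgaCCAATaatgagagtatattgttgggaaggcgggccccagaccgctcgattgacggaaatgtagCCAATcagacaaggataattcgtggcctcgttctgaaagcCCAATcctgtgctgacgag
Ciao2b and Card19 were also called lower under the replicate block (adjusted p = 0.0297 and 0.0353, limma). Both strands of the Tubb4b region were searched, and the 5 copies begin 221, 188, 122, 59 and 19 bases before the start. The share of all windows with this box is given above, and a match is no evidence of binding.

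Cytosolic ribosomal proteins were lower in every tested member by sign. All 75 had a negative difference over all 6 libraries, with a median of −0.54, or −0.39 relative to all genes. Without KO D4 replicate 2, 71 were called lower, or 39 with median-of-ratios scaling, and without replicate 2 of both days 13 were called lower with either scale. Rplp2, an acidic stalk protein, was at 819, 431 and 755 TPM at D4 and 404, 377 and 404 TPM at D7, without overlap. Rpl3, a core protein of the large subunit, was at 714, 159 and 596 TPM at D4 and 299, 154 and 287 TPM at D7, with both replicates 2 alike, and was called without KO D4 replicate 2 (−1.46, adjusted p = 0.0228, limma) and not without both (−1.15, adjusted p = 0.107, limma). Ribosomal protein genes have many pseudogenes with which reads can be shared, so single members are uncertain.

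Other parts of protein turnover moved less. Of 33 proteasome subunits, 3 were called lower without replicate 2 of both days, and Psma5 (−0.74) was the one still called with median-of-ratios scaling. Of 27 chaperone genes, Hspe1 and Hspa8 were called lower, and Hspe1, the mitochondrial co-chaperonin, was at 195, 132 and 159 TPM at D4 and 102, 85.6 and 102 TPM at D7, without overlap. The replicate block also called Hspe1 (−0.73, adjusted p = 0.022, limma). Of the cholesterol genes, Fdps, a prenyl synthase, and Srebf2, the regulator of the pathway, were the 2 of 24 called lower, at −0.91 and −1.05. Lower at D7 without overlap were 7 of the 24, beside 6.63% of all genes.

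Stromal genes were uneven among libraries and gave no call without replicate 2 of both days as deposited. Col1a1, the main chain of fibrillar collagen, was at 2610, 585 and 1541 TPM at D4 and 1699, 554 and 1290 TPM at D7, and Postn, a matrix protein of activated fibroblasts, at 1966, 41.6 and 1112 TPM and 798, 90.5 and 566 TPM. The replicates numbered 2 were lowest on both days, by more than the days differed. Pdgfra, the receptor of fibro-adipogenic progenitors, was at 32.9, 10.9 and 25.0 TPM at D4 and 26.6, 15.1 and 23.6 TPM at D7. The 32 genes of that cell type had relative medians of 0.12 over all 6 libraries and 0.14 without both, and the 45 collagen and matrix genes −0.11 and −0.17.

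Fat cell genes were lower at D7 without overlap in 10 of 32 and higher in 3, beside 6.63% and 2.36% of all genes. None was called with all 6 libraries or without replicate 2 of both days as deposited. Their relative median was −0.28 over all 6 libraries, 0.04 without KO D4 replicate 2 and −0.03 without both. The median of the list itself was −0.44, −0.28 and −0.25 in these fits, against −0.16, −0.32 and −0.22 for all genes. In WT the relative median was −0.05, with 5 members called higher and 1 lower. Adipoq, adiponectin, was at 36.4, 59.0 and 24.2 TPM at D4 and 16.1, 12.2 and 10.9 TPM at D7, and Scd1, a desaturase of lipid synthesis, at 88.1, 106 and 61.1 TPM and 30.5, 23.1 and 24.8 TPM. Adipoq differed by −1.46 (SE 0.76, adjusted p = 0.553, limma) and Scd1 by −1.64 (adjusted p = 0.241, limma). D4 replicate 2, the library with the most acinar and nerve transcripts, was also the highest in both genes. Plin4 and Aqp7, a lipid droplet coat protein and a glycerol channel, were called higher without KO D4 replicate 2, at 1.16 and 1.03.

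**Figure D3:**
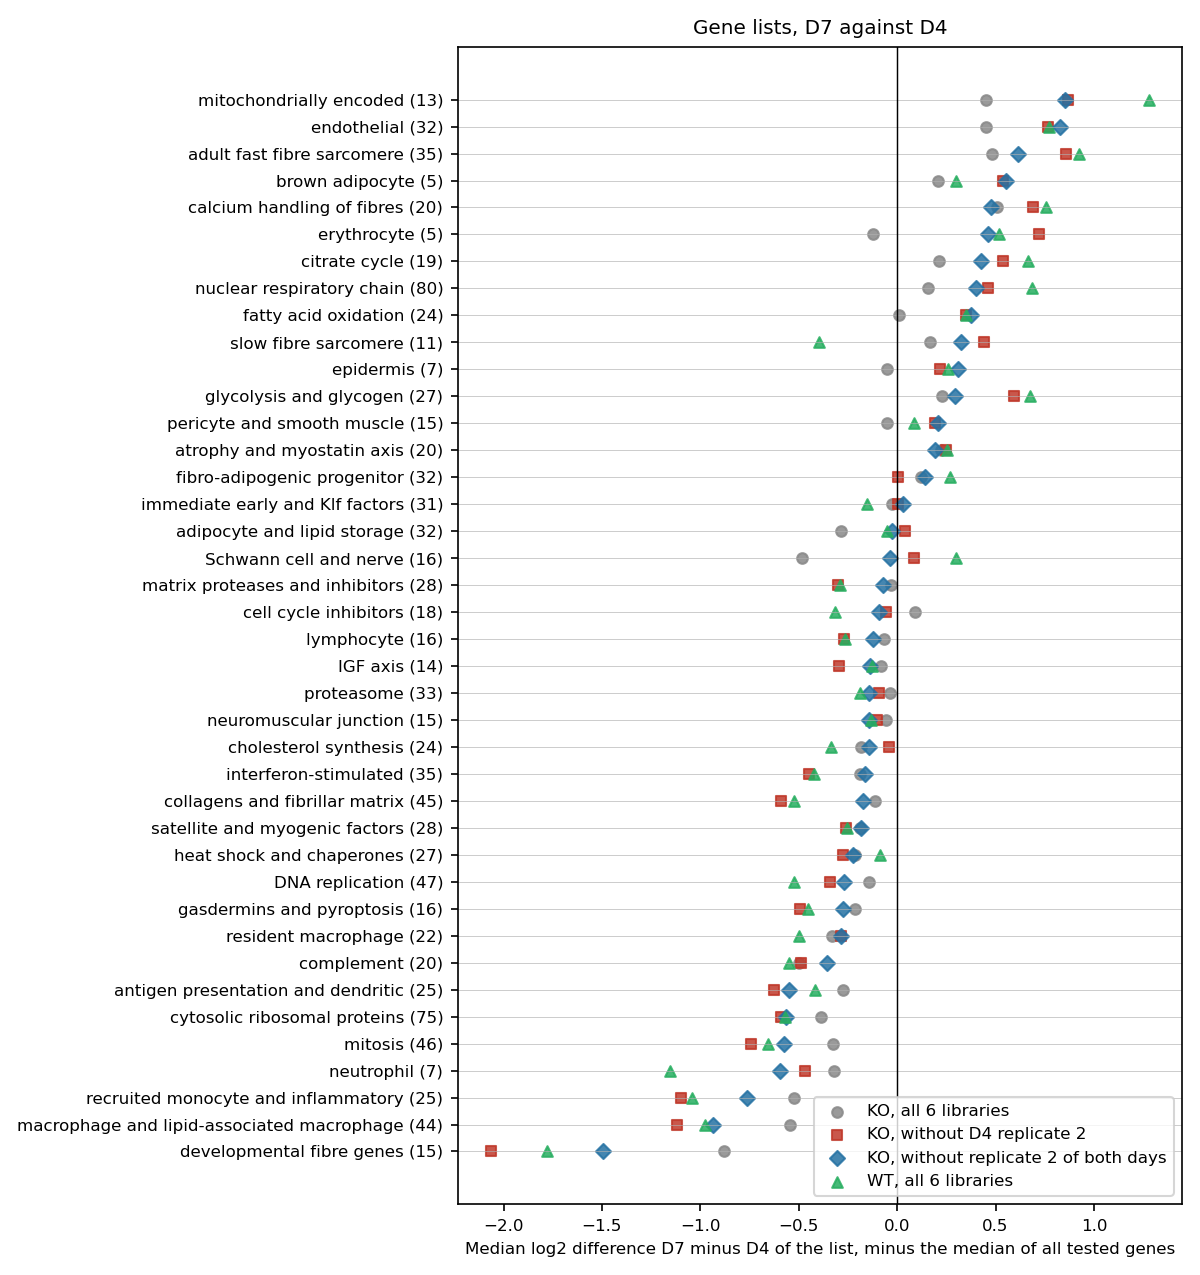
Median log2 difference (D7 minus D4) of each gene list with at least 5 members tested, relative to the median of all genes, for the 6 KO libraries (grey circles), without KO D4 replicate 2 (red squares), without replicate 2 of both days (blue diamonds) and for WT (green triangles). Developmental fiber genes lie farthest left at −0.88, −2.06, −1.50 and −1.78, and endothelial genes lie to the right at 0.45, 0.77, 0.83 and 0.77.

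**Figure D4:**
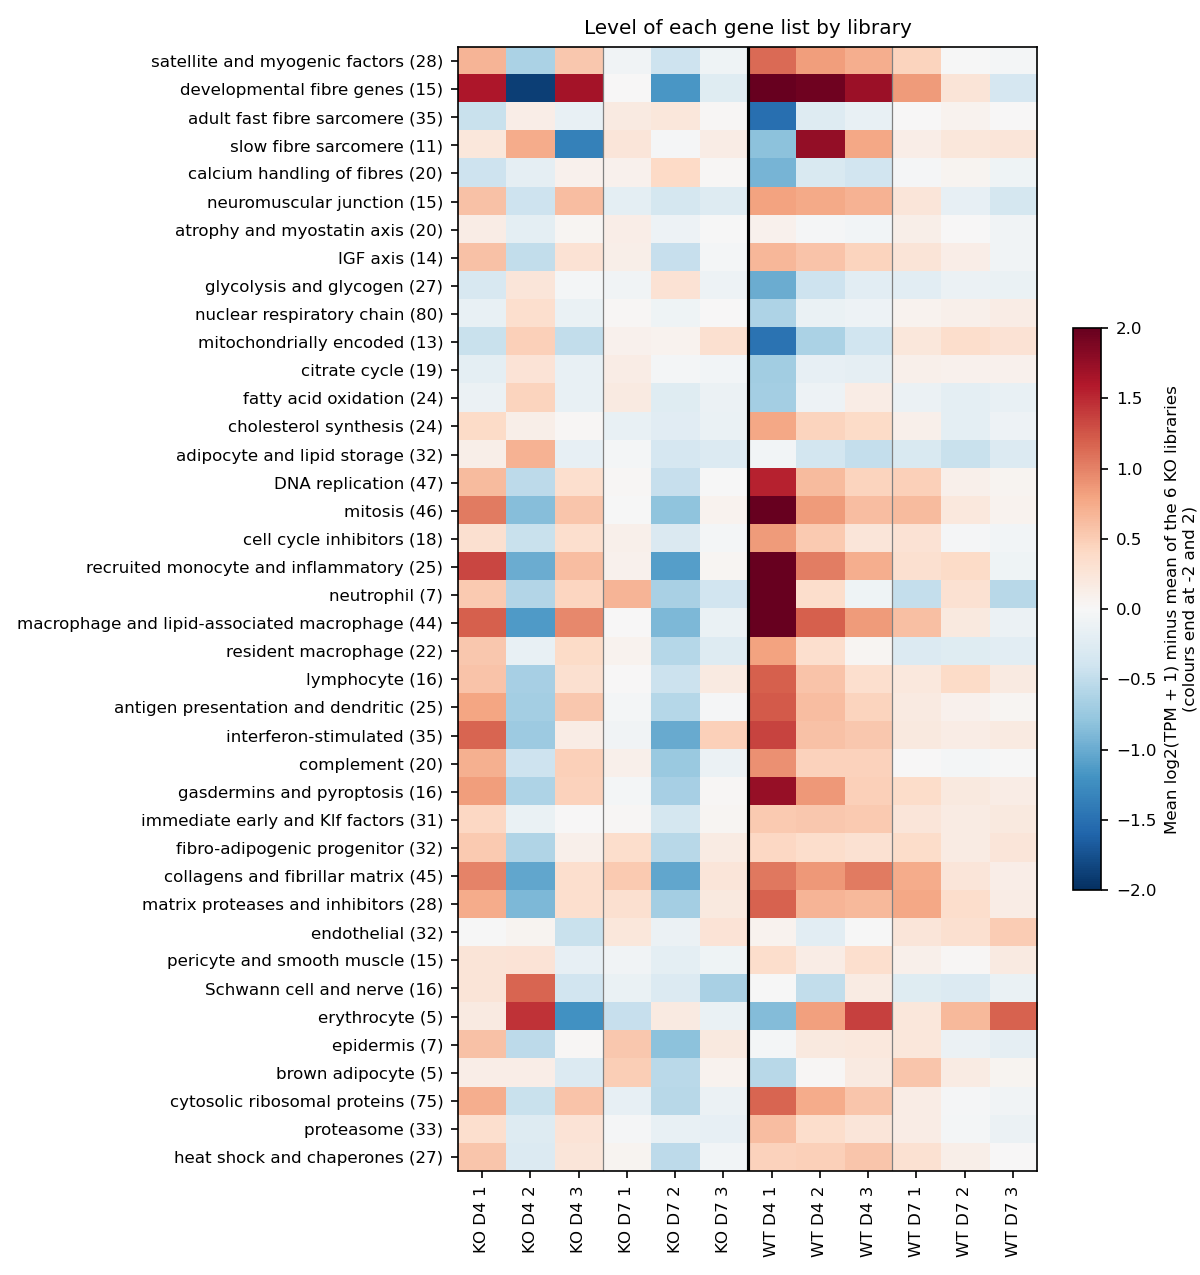
Mean log2(TPM + 1) over the tested members of each list in the 12 libraries of KO and WT at D4 and D7, as a difference from the mean of the 6 KO libraries (color scale). The column of KO D4 replicate 2 lies nearer the KO D7 columns than the other D4 columns for developmental fiber, macrophage and ribosomal genes, and WT D4 replicate 1 has the highest level of the macrophage and mitosis lists.

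The genes with the largest called changes were taken from the fit without replicate 2 of both days, among genes without overlap over all 6 libraries and with a mean of at least 5 TPM in the higher group. The 10 largest rises were Gm4841, Kcne1l, Pvalb, Gm45021, Gm4544, Erg, Rgs5, Rflnb, Adh1 and Nrep. Gm4841, a gene predicted to belong to the interferon-induced GTPases, was at 0.70, 1.31 and 1.61 TPM at D4 and 7.68, 9.16 and 11.3 TPM at D7. Kcne1l, a potassium channel subunit, was at 9.02, 3.40 and 4.43 TPM at D4 and 28.3, 15.6 and 23.1 TPM at D7. Both were also called under the replicate block (adjusted p = 0.0231 and 0.0319, limma), as was Gm4544 (adjusted p = 0.0448, limma), with differences of 2.24 (SE 0.37), 1.87 (SE 0.36) and 1.16 (SE 0.28) over all 6 libraries.

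The 10 largest falls were Gm44170, Tmem40, D830024N08Rik, Cdkn1a, Igfbp2, Erbb3, Tuba4a, Slc5a6, Fcna and Acta2. Tmem40, a membrane protein, was at 10.96, 1.85 and 9.30 TPM at D4 and 1.09, 0.94 and 0.87 TPM at D7. Igfbp2, which binds insulin-like growth factors, was at 8.54, 2.49 and 6.01 TPM at D4 and 1.68, 0.65 and 1.34 TPM at D7. Erbb3, a neuregulin receptor of Schwann cells and muscle, was at 9.22, 2.86 and 8.16 TPM at D4 and 1.98, 1.53 and 2.01 TPM at D7. All 3 were lowest at D4 in replicate 2 yet still above D7, and the replicate block called each of them (adjusted p = 0.0259, 0.022 and 0.022, limma). Gm44170 was listed at 0 in D7 replicates 1 and 2.

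Under the block, other genes called lower included Stac2, Tceal3, Mad1l1, Npnt and Tead4, in which D4 replicate 2 lay within the range of D7. Tead4, a transcription factor of myoblast differentiation, was at 15.98, 3.47 and 12.6 TPM at D4 and 4.06, 2.65 and 4.03 TPM at D7. Stac2, an adaptor of calcium channels, was at 11.7, 1.10 and 13.3 TPM at D4 and 1.22, 0.80 and 0.99 TPM at D7. Dlk1, a paternally expressed regulator of progenitors, was called higher only under the block (1.92, adjusted p = 0.0353, limma) among the fits as deposited, from 56.3, 2.71 and 40.3 TPM at D4 to 155, 29.8 and 98.2 TPM at D7. In Dlk1 the later library was the higher one within each replicate number while the groups overlapped. Cela1, an elastase of acinar cells, was called lower under the block (adjusted p = 0.0231, limma), and Ctrb1, another acinar gene, was at 2.52, 27.5 and 7.29 TPM at D4 and listed at 0 in the 3 D7 libraries.

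The same step in WT muscle was tested in the same fit. In WT, 478 genes were called higher at D7 (3.47%) and 1408 lower (10.2%), with a median over all genes of −0.25. These WT counts depend on the spread that all libraries share, and the sum of 1886 became 3421 without KO D4 replicate 2, 3740 without replicate 2 of both KO days and 3833 under the replicate block. Of the 1886 called in WT, 1844 had the same sign in KO over all 6 libraries. Of the 324 called in KO without replicate 2 of both days, 319 had the same sign in WT, 247 were called there in the same direction with all libraries in the fit and 302 in the fit without replicate 2 of both KO days, and none was called in the opposite direction in either. Across the 13793 genes the KO and WT differences correlated at r = 0.68 over all 6 KO libraries and 0.75 without replicate 2 of both days, genes not being independent. The median over all genes was negative in both steps, and the share of all genes with the same sign was not counted. The agreement in sign is therefore not shown to be particular to the called genes. WT D4 replicate 1 also stood apart, with 25.4% of TPM in the 50 most abundant genes against 33.2% and 35.0% in the other WT D4 libraries, and the highest summed level of macrophage genes of the 12 libraries (31141 TPM).

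**Figure D5:**
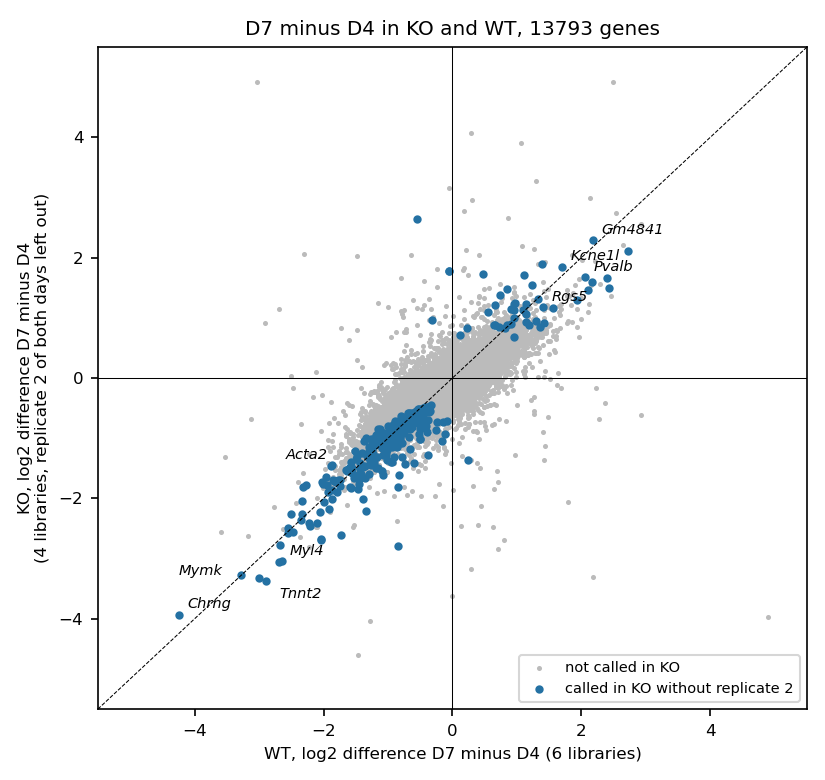
Log2 difference D7 minus D4 of each of the 13793 genes in WT (all 6 WT libraries) and in KO without replicate 2 of both days, with the 324 genes called in KO in blue and a dashed line of equal difference. The blue points lie mostly at lower left and along the line, and r across genes was 0.75.

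The test of the difference between the KO step and the WT step called no gene (0.0%). The lowest adjusted p was 0.918 in limma, and 351 genes had an unadjusted p under 0.05. Thus no gene was shown to change differently between genotypes from D4 to D7. In energy metabolism, 18 of 80 nuclear respiratory chain genes and 7 of 13 mitochondrially encoded genes were called higher in WT, beside a KO step in which that fit called no gene at all. The median difference between the steps, KO minus WT, was −0.40 and −0.72 for these lists against 0.11 for all genes. Without replicate 2 of both KO days it was −0.22 and −0.36 against 0.03, and without KO D4 replicate 2 alone −0.24 and −0.47 against −0.07. No member was called in the test of that difference in any of the 3 fits. In mt-Nd1 the WT libraries went from 2883, 4664 and 4723 TPM at D4 to 7096, 7850 and 8646 TPM at D7, and the difference between steps was −0.75 (SE 0.33, unadjusted p = 0.034, limma).

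The genes with the lowest unadjusted p for that difference were E130208F15Rik, Rab22a, Acbd6, Tmem160 and Polr2m on the side of KO and Ddit3, Gm10053, Ppp1ccb, 2310001H17Rik and Fmo2 on the side of WT. E130208F15Rik was at 3.79, 3.41 and 2.41 TPM in KO D4 and 5.66, 6.08 and 5.65 TPM in KO D7, and at 8.01, 7.56 and 4.86 TPM in WT D4 and 4.94, 3.95 and 4.42 TPM in WT D7. The Ddit3 values are those of the entry ENSMUSG00000116429 alone, which carries the name of a stress-induced transcription factor and was listed at 0 in the 3 uninjured libraries. Ddit3 was at 88.1, 45.2 and 163 TPM in KO D4, and was listed at 0 in KO D7 replicate 1 and at 41.5 and 58.5 TPM in the others. In WT it was at 7.13 TPM in D4 replicate 1, was listed at 0 in D4 replicates 2 and 3, and was at 102, 10.7 and 177 TPM at D7. Values that fall to 0 beside levels above 40 TPM can be failed estimates, and neither gene passed adjustment (adjusted p = 0.918 and 0.982, limma).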

How the data were processed

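RNA of injured mouse muscle was sequenced in 24 libraries (KO and WT, D1 to D14, 3 per group) beside 3 libraries of uninjured muscle. The authors deposited TPM, per the file headers and labels, for 55852 entries, with the mean of each group beside the libraries. These means matched the mean of their libraries to within 3.33e-05 TPM and were not used. The submitters' processing notes name mm10, and the aligner, counter and annotation are not given in the sources used here. TPM keeps no read depth, so depth per library is unknown and no counting intervals are given.

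Genes with at least 1 TPM in at least 3 of the 6 KO libraries of D4 and D7 were tested, 240 of 436 StringTie entries without a gene name among them. Values were transformed to log2(TPM + 1), a scale on which differences of low genes are understated. One model with 8 group means was fitted to the 24 injured libraries (limma 3.58.1, R 4.3.3, variance trend, Benjamini-Hochberg adjustment), a p-value measuring only the spread between these libraries. Gsdme was also compared by an exact permutation test.

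Members and gene lists were chosen with earlier results of these data known. Named genes were those marked in the lists, the 10 largest rises and 10 largest falls among called genes without overlap and with a mean of at least 5 TPM in the higher group, the 5 lowest p-values in each direction for the difference between genotypes, and Gsdme. Since the fit of all libraries called no gene, the rule for the largest changes was applied to the fit without replicate 2 of both days, a choice made after the values were seen, in which 77 genes met it. Other genes were named after their values were seen, and 1 gene of the lists is not reported here.

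Replicate numbers come from the sample titles and mark different mice on each day. Deviations from the group means of same-numbered D4 and D7 libraries correlated at 0.374, 0.519 and 0.190, all over 0.1. On that ground, and not by the design, the numbers were treated as pairing. The blocked result is given for named genes whose call it changed, and is no independent support, since the pairing came from these same values. Of the 6 pairs with different numbers, D4 replicate 1 with D7 replicate 3 correlated at 0.363 and D4 replicate 3 with D7 replicate 1 at 0.145, and the 4 with a replicate 2 were negative. Alternatives were other pseudocounts, filters, scalings, library weights, sets of libraries, and each library left out. Median-of-ratios scaling with replicate 2 left out was added after seeing the data. Promoter windows came from a RefSeq table of GRCm38.p6, the assembly that mm10 names.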

Additional observations from a re-analysis of the deposited data

How the results depend on the processing

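The count of genes called over all 6 KO libraries (0) moved under many alternatives, and the cause was not tested. Leaving out 1 library at a time gave 0 to 1312 calls, with 1312 without KO D4 replicate 2, 3 without KO D7 replicate 2 and 10 without WT D4 replicate 1, which enters only the shared estimate of spread. Leaving out replicate 2 of both KO days gave 324, the replicate block 30, no filter on low genes 7, median-of-ratios scaling 18, quantile normalization 23 and removal of the 50 most abundant genes 11. Library quality weights gave 4956 calls, with a weight of 0.11 for KO D4 replicate 2, by the gene-by-gene method because the REML estimate did not converge. The block fitted to the 6 KO libraries alone, added after seeing the data, gave 0 (limma, 1730 at an unadjusted p under 0.05). Fits added after seeing the data gave 1283 with only the 4 KO libraries numbered 1 and 3, 148 with only the KO libraries of D4 and D7 less KO D4 replicate 2, and, with median-of-ratios scaling, 641 without KO D4 replicate 2 and 341 without replicate 2 of both days. The difference between genotypes had 0 calls, 94 with library quality weights, 2 without the filter, and 0 with each library left out in turn. Gsdme was not called in 22 alternatives and had no value at a minimum of 5 TPM. Among single named genes, 3268 values of 3775 kept direction and side of the threshold, 474 became called, and 3 reversed, all with library quality weights: Cdkn1c to −0.52, Hba-a1 to 0.89 and Hbb-bs to 0.90. The replicate block changed no call between genotypes. With 3 libraries per group, and a replicate 2 that stands apart on both KO days, a gene that was not called is not shown to be unchanged. TPM gives no read depth, so low genes have unknown counting error.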

Other observations

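Families below were chosen after their values were seen and carry no test of their own. Besides Tubb4b and Tuba4a, the tubulins Tubb6 and Tubb2a were called lower without replicate 2 of both days, from 444, 47.4 and 410 TPM of Tubb6 at D4 to 78.4, 45.6 and 81.3 TPM at D7, and from 269, 47.9 and 236 TPM of Tubb2a to 60.1, 35.9 and 63.1 TPM. In these 2 genes D4 replicate 2 lay at the D7 level, unlike in Tubb4b and Tuba4a. Over 14 tubulins tested the median difference was −0.84 with all 6 libraries, or −0.69 relative to all genes.

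Imprinted genes went both ways. Over 18 tested the median difference was −0.04 with all 6 libraries, or 0.11 relative to all genes, and −0.40 without replicate 2 of both days. Dlk1, Rian and Meg3 were higher over all 6, at 1.92, 0.77 and 0.54. Grb10, an adaptor that restrains insulin signaling, Peg10 and Zdbf2 were called lower without replicate 2 of both days beside Igf2, at −1.11, −1.84 and −1.17, and were not called over all 6 libraries (−0.54, −1.09 and −0.71). Grb10 was at 184, 24.5 and 147 TPM at D4 and 86.4, 37.9 and 66.5 TPM at D7. H19, transcribed next to Igf2, was at 7686, 2015 and 7781 TPM at D4 and 4790, 3861 and 5257 TPM at D7 and was not called (−0.62, adjusted p = 0.282, limma, without both).

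Of 7 caveolins and cavins tested, Cav3 and Cavin4, the coat proteins of caveolae in muscle, were called lower without both at −0.84 and −0.83, and were not called over all 6 libraries (−0.53 and −0.45). The median of the 7 without both was 0.07, and Cav1, Cav2 and Cavin2 were higher in that fit at 0.60, 0.70 and 0.58, uncalled. The mitochondrial ribosomal RNA genes mt-Rnr1 and mt-Rnr2 were called higher without both (1.46 for mt-Rnr1), with mt-Rnr1 at 249, 730 and 281 TPM at D4 and 713, 470 and 749 TPM at D7, the replicates numbered 2 being highest at D4 and lowest at D7. In WT the 2 genes rose by 2.10 and 2.43. The difference between steps over all libraries was −1.34 and −1.80 (unadjusted p = 0.00671 and 0.00252, limma) and was not called (adjusted p = 0.982 for each, limma). Klf9, a transcription factor induced by glucocorticoids, was called higher without both (0.92, adjusted p = 0.0374, limma), from 17.6, 22.6 and 19.7 TPM at D4 to 40.4, 29.7 and 32.4 TPM at D7, without overlap.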
